A study of Mus musculus with 27 samples.

Results

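Gene-end regions were the stretches of H3K4-methylated chromatin that lay over the last exon of a protein-coding transcript and far from any transcription start site (TSS). They were taken from the authors' merged list of regions with H3K4me1, H3K4me2 or H3K4me3, as those 1000 to under 8000 bp wide, over 5 kb from every annotated TSS, and overlapping such a last exon by at least 1 bp. The rule found 1793 regions among 358833 merged regions. Of the merged regions, 80022 had these widths, and 53690 of those lay over 5 kb from a TSS. The 1793 regions covered 4331 kb and touched the ends of 1688 genes. The position of a region chose it, and its state was then read as its place in the authors' list of decreased H3K4me1, in their list of decreased H3K4me2, or in neither, together with the state of the promoter of the same gene.

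The chromatin came from whole mouse hearts at embryonic day E11.5 on a C57BL/6 background. Control hearts were *Tnnt2::Cre;Kmt2d fl/+* and mutant hearts were *Tnnt2::Cre;Kmt2d fl/fl*, with a *mTmG/+* Cre reporter, so the controls also carried Cre and 1 floxed copy. Cre was made from the *Tnnt2* promoter, which is active in heart muscle, and endocardial, epicardial and other cells of the pooled hearts kept *Kmt2d*. For each genotype, 3 pools of 30 hearts were divided into an input and chromatin immunoprecipitations for the 3 marks, giving 24 heart libraries in 8 groups of 3. A further 3 libraries of KMT2D ChIP-Exo from cardiomyocytes were not analysed here. A lower mark in fewer cells and a lower mark per cell cannot be told apart in such pools.

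KMT2D is an enzyme that methylates histone H3 on lysine 4 (H3K4). In active genes H3K4me3 sits at the start, H3K4me2 spreads around it and into enhancers, and H3K4me1 marks enhancers and the flanks of promoters. Methylated H3K4 at the far end of a gene is away from the usual promoter peak, and elements there can include enhancers inside or beyond the last exon. The last exon usually carries the stop codon and the 3' untranslated region (UTR), and transcripts are cut and polyadenylated a short way after a signal, most often AATAAA.

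The deposited lists hold positions only, with no read count, fold change or *P* value for any library. The depth behind a region is therefore unknown, and no value could be set against the spread between pools. A decreased region is one that the authors placed in a deposited list of regions lower in the mutants. Their methods give a false discovery rate below 0.1 for such calls. The deposited H3K4me2 list holds 6699 regions and is longer than the list their text describes, so whether each of its regions met that threshold is unknown. Shares are given with 95% Wilson intervals, which treat regions as independent, cover counting error only and are no test between genotypes. The lists could not check the tissue or the cell types. A merged region lay over a TSS of 30 of 30 sarcomere and Z-disc genes, 19 of 20 endothelial and endocardial genes, 10 of 10 epicardial genes and 11 of 13 erythroid genes, but also of 35 of 35 cell cycle genes and of 15613 of 22378 protein-coding genes in all.

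The ends themselves are shown first, because a region was counted by the gene end it overlaps. The following sequences are the last 30 transcribed bases of 10 gene ends that lie inside a region with a decreased mark, read 5' to 3' on the strand of the gene from assembly NCBIM37 (mm9), with the signal AATAAA in capitals. The first 8 had decreased H3K4me1 over the end and the last 2 had decreased H3K4me2.
*Pbxip1* (chr3:89254845-89254874, plus strand): tAATAAAttttggagtctcagagttcctct
*Btbd9* (chr17:30352469-30352498, minus strand): caccatagaAATAAAgcagtgtcttcgata
*Med27* (chr2:29380284-29380313, plus strand): taaacAATAAAgcttttgtaccctggacaa
*Arhgef40* (chr14:52625893-52625922, plus strand): tacaaaAATAAActctcatgcctatggacc
*Zfp219* (chr14:52625752-52625781, minus strand): AATAAAcaggtgtcttgaggcacaaggccc
*Plec* (chr15:76001404-76001433, minus strand): gcccctcAATAAAagcaattccaaccttca
*Capg* (chr6:72512948-72512977, plus strand): tcAATAAAggacacattccattccctgctc
*E2f2* (chr4:135751943-135751972, plus strand): tgggcattaaataatggcggctctggtaaa
*Sfxn3* (chr19:45130844-45130873, plus strand): ggtgtcAATAAActgcaatcctgtctggtt
*Far1* (chr7:120714996-120715025, plus strand): cttAATAAAgaaaatttgagcaacattaag

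The ends of *Arhgef40* and *Zfp219*, which lie on opposite strands and run towards each other, were held by the same region. At *E2f2* the 6 letters AATAAA were not found in the last 40 bases, which says only that these letters are absent from that window. At *Sfxn3* the region began at -7 bp from the end, and 99.8% of it lay past the gene. Only the last printed bases of *Sfxn3* lie inside the region, and its AATAAA lies outside. Over all outermost ends held by a gene-end region, 434 of 747 (58.1%, interval 54.5% to 61.6%) had AATAAA on the gene strand in the last 40 bases, against 53.3% of 22242 outermost protein-coding gene ends. Among ends with decreased H3K4me1 it was 16 of 24 (66.7%, 46.7% to 82.0%), and among those with decreased H3K4me2 it was 4 of 5 (37.6% to 96.4%). The intervals of both kinds of decreased end contained the share of all held ends.

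The gene-end regions were of moderate width, with a median of 1900 bp and quartiles of 1340 and 3040 bp. A single gene end was touched by 1753 of them, 39 touched 2 and 1 touched 3, which gave 1834 region-gene pairs. Conversely, 134 genes had 2 or more gene-end regions. An annotated transcript end lay inside 1108 regions (61.8%), a stop codon inside 968 (54.0%), and 1466 (81.8%) touched the last exon at the outermost end of the gene. The remaining regions touched the last exon of a shorter transcript, so that they can lie well inside the gene. Parts of each region were counted over all protein-coding genes. Taken separately, the medians were 27.3% UTR, 4.65% coding sequence, 23.5% intron and 0% outside genes (upper quartile 29.6%), so they do not describe 1 region. The centre of the median region lay at -842 bp from the annotated end, where positive values are past the end.

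The rule has thresholds, and the regions beside them were as follows. The narrowest members were 1000 bp wide, among them 1 at *Npas2* (chromosome 1, 39344246 to 39345245), while 1 at *Mrpl15* (chromosome 1, 4764886 to 4765865) was left out at 980 bp. The widest member, at *Bcl2l11*, was 7860 bp, and the narrowest region above the limit, at *Tspan18*, was 8020 bp. The member nearest to a TSS, at *Fnbp1*, lay 5007 bp away, and a region at *Qdpr* was left out at 4999 bp. Of gene-end regions just below the width limit, at 500 to under 1000 bp, 6 of 1158 had decreased H3K4me1 and 4 had decreased H3K4me2. At 8000 bp or more, these were 5 and 3 of 49.

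Few gene ends had a decreased mark, and none had both. The paper also reports few merged regions with both marks decreased, so their absence here does not set gene ends apart. H3K4me1 was decreased at 42 of 1793 gene-end regions (2.34%, interval 1.74% to 3.15%), where 2.06% of all distal merged regions of the same widths, 1.91% of merged regions of those widths and 0.761% of all merged regions were in that list. H3K4me2 was decreased at 18 (1.00%, 0.636% to 1.58%), where the shares were 1.33%, 5.32% and 1.87%. Both shares were near those of other distal regions of the same widths, which lay inside the intervals. The remaining 1733 regions were in neither list.

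Decreased H3K4me1 was more frequent at wider gene-end regions. It was called at 8 of 947 regions of 1000 to 2000 bp (0.845%, 0.429% to 1.66%), at 19 of 598 of 2000 to 4000 bp (3.18%, 2.04% to 4.91%) and at 15 of 248 of 4000 to 8000 bp (6.05%, 3.70% to 9.74%). The interval of the narrowest class did not overlap the others. Introns followed the same order, at 1.28%, 3.43% and 6.29%. The shares of regions over inner exons were higher than those of gene ends in each class, at 1.48%, 5.13% and 7.53%. Those of intergenic regions of at least 2000 bp were lower, at 2.07% and 4.15%. In each of these classes the interval of gene ends overlapped that of the other kind, so no difference was shown. Over all widths, inner exons had 3.57% (3.04% to 4.19%), which overlapped the interval of gene ends at its lower edge.

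Decreased H3K4me2 was not more frequent at the wider gene-end regions. The shares were 0.95% (9 regions), 1.17% (7) and 0.806% (2 of 248, 0.221% to 2.89%) from the narrowest to the widest class. In introns the share went from 0.497% to 2.23% (1.70% to 2.92%), and between genes from 1.11% to 5.56% (4.55% to 6.78%). At 4000 bp or more the interval of gene ends overlapped that of introns and lay below that of intergenic regions, with only 2 decreased regions to set it.

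**Figure D1:**
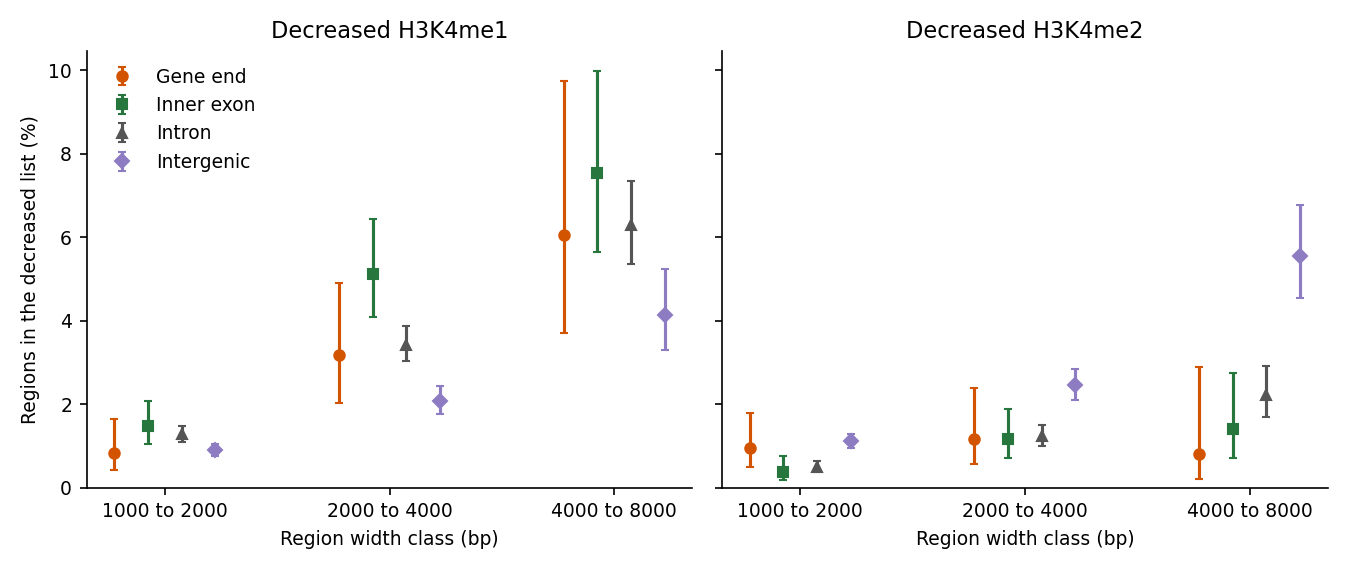
Share of regions in the authors' lists of decreased H3K4me1 (left) and decreased H3K4me2 (right), in percent, by width class in bp. Points are distal regions of each kind, and bars are 95% Wilson intervals. H3K4me1 at gene ends rose from 0.845% to 6.05% over the width classes, while H3K4me2 stayed between 0.806% and 1.17%.

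The regions with decreased H3K4me1 were wide and richer in GC than the other gene ends. Their median width was 3100 bp against 1880 bp for ends in neither list, and 2000 bp for ends with decreased H3K4me2. The median GC content was 51.9% with decreased H3K4me1, 46.1% with decreased H3K4me2 and 48.1% in neither. The ranges overlapped, at 43.9% to 57.2%, 36.4% to 64.2% and 33.8% to 68.3%. A CpG-rich window was held by 18 of 42 (42.9%, 29.1% to 57.8%), 8 of 18 (44.4%, 24.6% to 66.3%) and 32.0% of the ends in neither list. Such a window is 200 bp with over 50% GC and an observed over expected CpG of over 0.6, and a wider region has more chances to hold one. Over the whole region, the median observed over expected CpG was 0.228, 0.275 and 0.250 in the same order, so it was not higher with decreased H3K4me1. Gene ends as a whole held one more often (32.3%, 30.2% to 34.5%) than inner exons (26.1%), intergenic regions (17.6%) or introns (12.7%). Among intergenic regions with decreased H3K4me2 the share was 61.3% (56.6% to 65.7%), which lay inside the interval for gene ends with decreased H3K4me2.

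**Figure D2:**
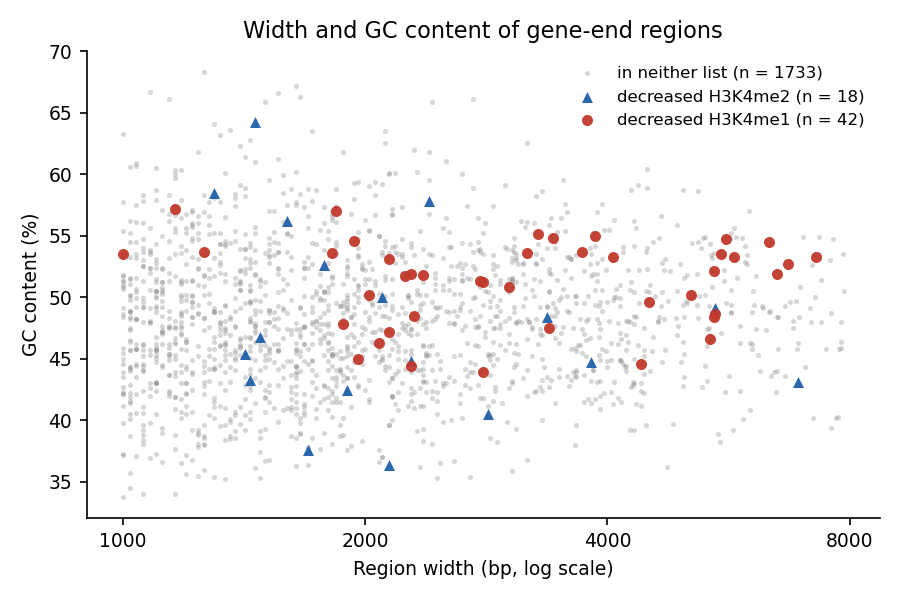
Width in bp (log scale) and GC content in percent of each of the 1793 gene-end regions. Points are regions: 42 with decreased H3K4me1, 18 with decreased H3K4me2 and 1733 in neither list. Regions with decreased H3K4me1 lay between 43.9% and 57.2% GC and had a median width of 3100 bp.

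The position of the regions over the gene end was also read by state. With decreased H3K4me1, 32 of 42 (76.2%, 61.5% to 86.5%) held an annotated transcript end, against 61.5% (59.2% to 63.8%) of the regions in neither list and 10 of 18 (55.6%) with decreased H3K4me2. At *Gsn*, *Rffl*, *Tnip1*, *Ptpn3* and *Tspan9* this end was only that of transcripts tagged incomplete at the 3' end. A last exon not so tagged was touched by 88.1% of regions with decreased H3K4me1, 94.4% with decreased H3K4me2 and 93.9% in neither list. Coverage was highest 400 bp before the end for decreased H3K4me1 (75% of pairs), 1000 bp before it for decreased H3K4me2 (66.7%) and 500 bp before it for the others (55.8%). The first group was also the widest, and its intervals overlapped those of the others.

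**Figure D3:**
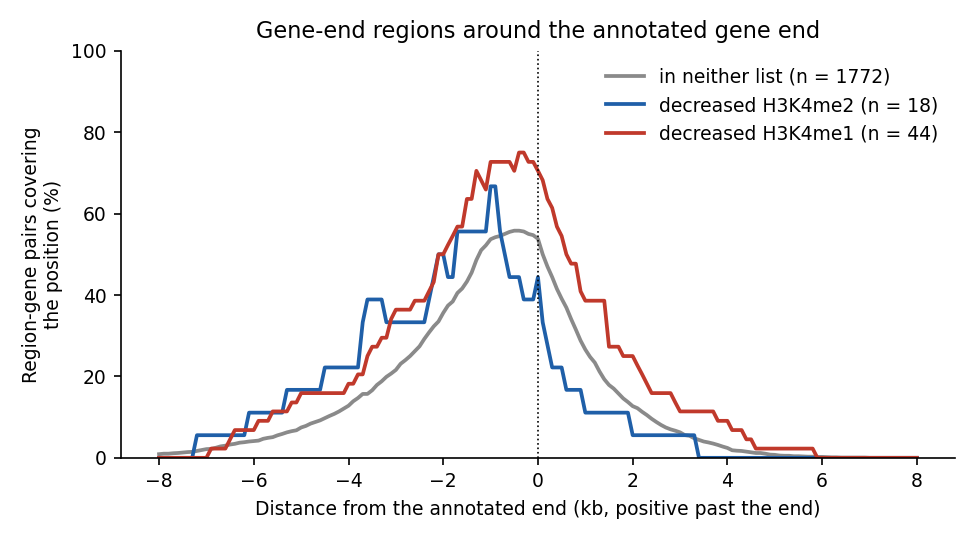
Share of region-gene pairs, in percent, whose region covers each position around the annotated end, in kb with positive values past the end. Lines are 44 pairs with decreased H3K4me1, 18 with decreased H3K4me2 and 1772 in neither list. The line for decreased H3K4me1 reached 75% just before the end, and that for regions in neither list reached 55.8%.

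The 8 widest gene-end regions with decreased H3K4me1 lay over genes of varied function. They were at *Rprd1b* (7260 bp), whose product binds the tail of RNA polymerase II; *Btbd9* (6700 bp), a BTB-domain protein; *Camk2a* (6500 bp), a calcium/calmodulin-dependent kinase; *Wasf2* (6340 bp), which promotes actin branching; *Med27* (5740 bp), a subunit of Mediator; *Pbxip1* (5620 bp), which binds PBX factors; *Pldi* (5540 bp); and *Entpd4* (5440 bp), a nucleotide hydrolase of the Golgi. Those of *E2f2* and of *Il16* with *Stard5* followed at 5420 bp each. At *Rprd1b* (chromosome 2, 157952806 to 157960065) the region held a stop codon and had 53.3% GC. It reached 2032 bp past the annotated end of *Rprd1b*, where it lay in another protein-coding gene. Its 74.5% intron was counted over all protein-coding genes and can include intron of that other gene. At *Btbd9* (chromosome 17, 30347946 to 30354645) 67.5% of the region lay past the gene and 32.5% was UTR. At *Wasf2* (chromosome 4, 132751626 to 132757965) 61.2% was UTR and 36.2% lay past the gene.

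*E2f2*, a transcription factor that drives genes of the cell cycle, had decreased marks at both ends. Its last intron, last coding sequence and 3' UTR lay under a region with decreased H3K4me1 (chromosome 4, 135746906 to 135752325), which was 55.7% UTR, 32.6% intron and 5.18% coding. This region reached from -5066 bp to 353 bp relative to the annotated end of the 23664 bp gene. The promoter lay under an H3K4me2-decreased region of 11700 bp (135725986 to 135737685). The 4 other merged regions in the gene body were in neither list.

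*Camk2a* had 2 gene-end regions and both kinds of decreased mark, but not at its outermost ends. The region with decreased H3K4me1 (chromosome 18, 61102446 to 61108945) covered the last exon of a short transcript and was 94.6% intron. The second region, over the outermost end, was 3840 bp wide and in neither list. The H3K4me2-decreased region over a TSS (61121606 to 61126865) lay downstream of the first gene-end region, at the start of other transcripts, while the region over the first TSS (61084526 to 61086385) was in neither list. *Bcl9l*, a Wnt co-activator, had a region of 3940 bp over its end in neither list, and its promoter region was in both. *Stradb*, *Gpx1*, *Fxyd1*, *Sgca*, *Klhl30*, *2900026A02Rik*, *Dclk1*, *Gse1*, *Mgp* and *Kmt2d* were looked up in the same way and had no gene-end region. All of these genes were listed with earlier results of these data known, so they are not independent evidence.

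Further regions with decreased H3K4me1 are given as examples, chosen after their values were seen, and no gene group was tested for them. The region at *Gsn*, which encodes the actin-severing protein gelsolin, was 2800 bp wide. It touched last exons only of *Gsn* transcripts tagged incomplete at the 3' end, and not the outermost end of the gene. Those at *Plec*, for the linker plectin, and *Capg*, for an actin-capping protein, were 1840 and 1820 bp. At *Tns1*, for the focal adhesion protein tensin, the decreased region was 3180 bp wide and stopped at -3301 bp from the outermost end. A gene-end region nearer that end (chromosome 1, 73957726 to 73958805) and another at 74034446 to 74036545 were in neither list. A region over an internal TSS of *Tns1* (74039386 to 74058105) was in the H3K4me1 list as well. The region over its outermost start (74167986 to 74172205) was in neither list.

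*Slc4a3*, from the list of ion transport genes, encodes the heart anion exchanger AE3 and had a region of 4500 bp (chromosome 1, 75555146 to 75559645). *Slc9a8*, a sodium/proton exchanger, had 1 of 1940 bp, and *Atp6v0e*, a subunit of the vacuolar proton pump, had 1 of 5360 bp. *Slc17a5*, a lysosomal carrier, had 1 of 2080 bp. *Kremen1*, a receptor that limits Wnt signalling, had 1 of 3720 bp, *Depdc5*, which restrains mTORC1, had 1 of 5080 bp, and *Nfatc2*, a calcium-regulated transcription factor, had 1 of 1000 bp.

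The 18 regions with decreased H3K4me2 were 1300 to 6900 bp wide, and 9 of them were under 2000 bp. The 8 widest were at *Ankrd29* (6900 bp), *Gstz1* (5440 bp), *Pde11a* (3820 bp), *Sfxn3* (3360 bp), *Senp8* (2840 bp), *Ppfia4* (2400 bp), *Tspan5* (2280 bp) and *Far1* (2140 bp). *Gstz1* acts in tyrosine breakdown, *Pde11a* degrades cyclic nucleotides, *Senp8* removes NEDD8 from proteins and *Far1* makes fatty alcohols for ether lipids. The region at *Ankrd29* ended at -315 bp from the annotated gene end and was 70.7% intron. At *Gstz1* it ended at -688 bp and was 85.5% intron. At *Sfxn3* it began at -7 bp, and 99.8% of it lay past the gene. At *Tspan5* it touched last exons only of transcripts that the annotation tags as incomplete at the 3' end. Of the narrower regions, with examples chosen after the values were seen, *Alk*, a receptor tyrosine kinase, had 1 of 1600 bp and *Plxna2*, a semaphorin receptor, had 1 of 1480 bp. The region at *Ppfia4* was the only decreased one that also held a RefSeq gene start that the annotation lacks, while 34 regions in neither list held one.

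To determine whether the end of a gene and its promoter were called together, the state of every merged region over a TSS of the same gene was read. A promoter with decreased H3K4me2 was present in 20 of 42 pairs whose end had decreased H3K4me1 (47.6%, interval 33.4% to 62.3%). The share was 494 of 1647 (30.0%, 27.8% to 32.3%) where the end was in neither list, and 5 of 17 (29.4%, 13.3% to 53.1%) where the end had decreased H3K4me2. Over all protein-coding genes with a TSS in a merged region the background was 29.2% for H3K4me2 and 0.986% for H3K4me1. The intervals of the first 2 groups did not overlap. They did overlap under 6 of the 14 alternatives, among them a width of at least 2000 bp (38.2%, 23.9% to 55.0%) and distance from TSS of protein-coding transcripts only (38.0%, 27.6% to 49.7%). A promoter with decreased H3K4me1 was rare in each group, at 2 of 42, 1 of 17 and 36 of 1647 (2.19%).

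The difference was largest at the narrow ends, in a split by width that was read after the pooled value had been seen. At gene-end regions of 1000 to 2000 bp with decreased H3K4me1, 7 of 8 promoters had decreased H3K4me2 (87.5%, 52.9% to 97.8%), against 29% (26.0% to 32.1%) for ends in neither list. They were the promoters of *Atxn1*, *Slc9a8*, *Lsg1*, *Plec*, *Capg*, *Samhd1* and *Tspan9*, and *Nfatc2* was the exception. The end at *Tspan9* was only that of transcripts tagged incomplete at the 3' end. At 2000 to 4000 bp the shares were 6 of 19 (31.6%, 15.4% to 54.0%) and 29.8%, and at 4000 to 8000 bp 7 of 15 (46.7%, 24.8% to 69.9%) and 34.5%. In both wider classes the interval contained the share of ends in neither list.

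The width of the promoter region, taken as the widest merged region over any TSS of the gene and not always the decreased one, moved with the result. Its median was 5240 bp for ends with decreased H3K4me1 and 4300 bp for ends in neither list. With a widest promoter region of 4000 bp or more the shares were 14 of 26 (53.8%, 35.5% to 71.2%) and 38.7% (35.5% to 41.9%), with those of 2000 to 4000 bp 6 of 12 and 23.5%, and with narrower ones 0 of 4 and 9.66%. The part of promoter width in the pooled value was not tested further. Regions elsewhere in genes did not show the same order. With decreased H3K4me1 in the distal region, the promoter shares were 30.4% (23.4% to 38.6%) for inner exons and 33.8% (30.0% to 37.8%) for introns, against 33.6% and 36.6% for such regions in neither list. The interval for gene ends overlapped both.

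**Figure D4:**
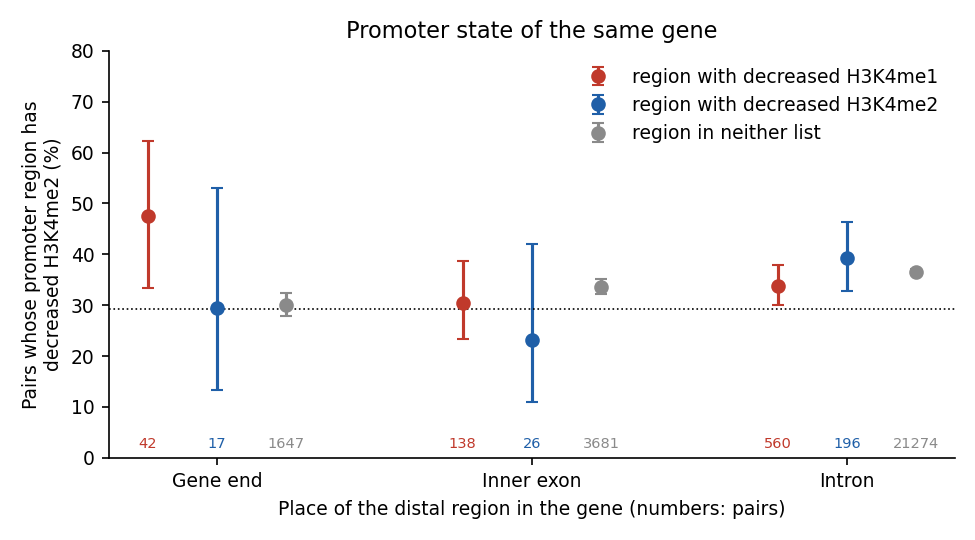
Share of region-gene pairs, in percent, whose promoter region was in the list of decreased H3K4me2, for distal regions over gene ends, inner exons and introns. Points are grouped by the state of the distal region, bars are 95% Wilson intervals, the numbers are pairs, and the dotted line is the 29.2% of all protein-coding genes. Gene ends with decreased H3K4me1 were at 47.6% and those in neither list at 30.0%.

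Genes with decreased H3K4me1 over the end and decreased H3K4me2 over a promoter were, from the widest end region, *Btbd9*, *Camk2a*, *Wasf2*, *Pbxip1*, *E2f2*, *Atp6v0e*, *E130308A19Rik*, *Zfp219*, *Zc3h4* and *Rffl*, followed by 10 narrower ones. The H3K4me2-decreased promoter regions were 3920 bp wide at *Btbd9*, 4020 bp at *Wasf2*, 3040 bp at *Pbxip1*, 5080 bp at *Atp6v0e*, 16260 bp at *Zfp219* and 20480 bp at *Zc3h4*. In the short gene *Pbxip1* (14247 bp), the promoter and end regions were separated by 2 merged regions in neither list. At *Zfp219*, a zinc finger factor, the H3K4me2-decreased region covered most of the gene and stopped at -2294 bp, and the H3K4me1-decreased region began at -1013 bp. The same region also covered the end of *Arhgef40*, whose promoter was in neither list.

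**Figure D5:**
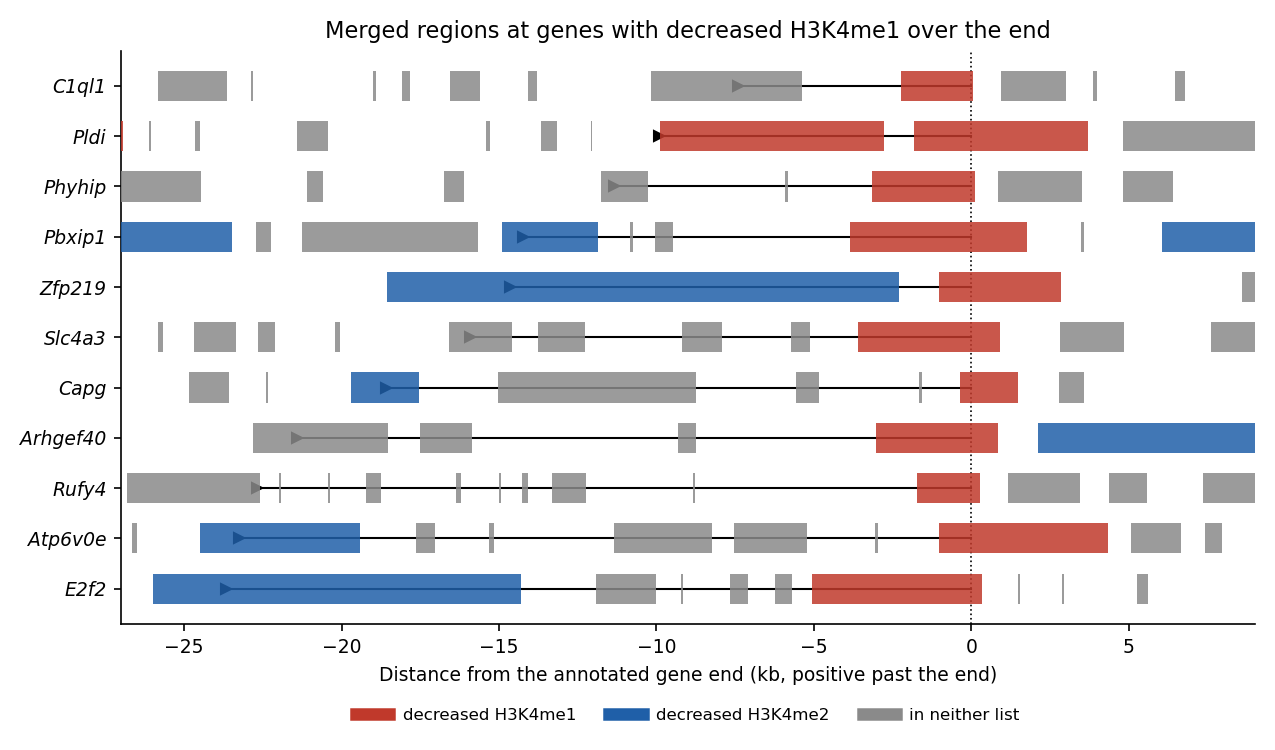
Merged regions around 11 genes shorter than 25 kb whose annotated end lies in a region with decreased H3K4me1, drawn in kb from the gene end. Lines are genes with an arrowhead at the start, and boxes are merged regions by state. At *Pbxip1*, *Zfp219*, *Capg*, *Atp6v0e* and *E2f2* a region with decreased H3K4me2 covers the start. At *Pldi*, which starts at -9906 bp, a separate region from -9891 to -2772 bp covers most of the gene and also had decreased H3K4me1.

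Ends with decreased H3K4me1 tended to have further decreased H3K4me1 nearby. Of 44 genes with such an end, 14 (31.8%) had another H3K4me1-decreased region in the gene body, against 240 of 1635 genes (14.7%) with ends in neither list and 2 of 18 (11.1%) with decreased H3K4me2. The genes were of similar length, with medians of 51842 and 46072 bp, and had a median of 8 and 9 further body regions. Counting only body regions of at least 1000 bp, 20 of 279 (7.17%) and 278 of 8730 (3.18%) were in the H3K4me1 list. This count had no upper width limit, so it is not matched in width to the gene-end regions. Within 10 kb, 9 of 42 ends (21.4%, 11.7% to 35.9%) had another H3K4me1-decreased region, against 108 of 1733 (6.23%, 5.19% to 7.47%), and the intervals did not overlap. For H3K4me2-decreased neighbours the shares were 11.9% (5.19% to 25%) and 10.2%, which did overlap. The same order was seen away from gene ends. An H3K4me1-decreased neighbour within 10 kb was present for 18.8% (13.2% to 25.9%) of inner exon regions with decreased H3K4me1 and 6.29% of those in neither list, and for 19.4% (16.3% to 22.9%) and 6.18% of intronic regions. The interval for gene ends contained both values with decreased H3K4me1. Neighbouring regions are not independent.

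Lists of heart genes were read for their ends. Of 299 listed genes, 43 had a gene-end region. A gene end close to a TSS cannot have one, so the 191 listed genes with a last exon over 5 kb from any TSS are the better base. Of these, 22.5% had a gene-end region, against 14.0% of 12100 such genes in the annotation. The share was highest for endothelial and endocardial genes (7 of 15, 46.7%), then ion transport and calcium handling (12 of 29, 41.4%), TGF-beta, BMP, Wnt and Notch signalling (10 of 29, 34.5%), cardiac transcription factors (5 of 17, 29.4%), epicardial genes (2 of 7) and sarcomere genes (4 of 20). It was 0 of 23 for extracellular matrix genes, 0 of 9 for H3K4 methylation enzymes and partners and 0 of 1 for erythroid genes. Cell cycle and hypoxia genes had 1 of 20 and 2 of 21. These counts are small, and the lists were not drawn at random from the annotation.

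Decreased H3K4me1 lay over the ends of 3 listed genes, *Camk2a*, *Slc4a3* and *E2f2*. They made up 3 of the 51 gene-end regions of listed genes (5.88%, 2.02% to 15.9%), and the 2.34% of all gene-end regions lay inside this interval. Decreased H3K4me2 was called at 0 of 51, a count whose Wilson interval reaches 7% and which cannot be told from the 1.00% of all gene-end regions. Ends in neither list included those of *Tnnt2*, cardiac troponin T (3440 bp), *Atp2a2*, the sarcoplasmic calcium pump (3480 bp), *Kdr*, an endothelial VEGF receptor (7760 bp), *Gata4* (1220 bp) and *Tbx20* (7200 and 1980 bp). Decreased H3K4me2 over a promoter was present for 29.2% of all protein-coding genes with a TSS in a merged region. For all pairs of a gene-end region and a gene with a promoter region it was 30.4%. In the list of cardiac transcription factors, it was present for all 5 genes with a gene-end region (*Ankrd1*, *Gata4*, *Gata6*, *Mef2a* and *Tbx20*) and for 19 of all 27. Among the 7 endothelial genes with a gene-end region it was 1, *Tal1*, and among all 20 it was 2. Among the 4 sarcomere genes it was 0, and among all 30 it was 8. For the other lists it was 4 of 12 ion transport, 5 of 10 signalling, 2 of 2 hypoxia, 1 of 1 cell cycle and 0 of 2 epicardial genes. These counts are small and were not tested. *Tnnt2* is also the gene whose promoter drives Cre in these hearts.

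Short sequence motifs were counted on both strands, as a description of the regions. Gene-end regions held GGGCGG, the SP factor motif, at 0.336 per kb and in 40.8% of regions, against 0.168 per kb and 25.6% in introns and 0.455 per kb in all merged regions of these widths. The E-box CACGTG was at 0.179 per kb and the shorter ACGTG of the hypoxia-inducible factor, which lies inside it, at 0.825 per kb. The TEAD motif GGAATG was at 0.632 per kb, against 0.653 in introns. The motif of GATA factors, which act in heart muscle and endocardium, is AGATAA and was at 0.611 per kb, against 0.737 in introns. The MEF2 motif TAAAAAT was at 0.326 per kb, against 0.425 in introns. With decreased H3K4me1 the MEF2 motif was at 0.196 and the GATA motif at 0.519 per kb, and with decreased H3K4me2 these were 0.353 and 0.860. A wider region has more chances to hold a motif. The H3K4me1-decreased ends, which were wider, held TEAD in 83.3% of regions against 71.1% of all. Per kb the values were 0.667 and 0.632, and the part of width was not tested.

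Gene-end regions were found on 20 chromosomes and none on the Y. Those with decreased H3K4me1 lay on 16 chromosomes, with most (6 of 152) on chromosome 2, and those with decreased H3K4me2 on 11, with most (4 of 139) on chromosome 1. No gene had more than 1 decreased gene-end region. Only 134 genes had 2 or more gene-end regions, and 60 of all 1793 regions were decreased, so this absence does not set these genes apart.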

How the data were processed

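H3K4me1, H3K4me2 and H3K4me3 ChIP-Seq regions came from the authors' deposited BED lists, which hold coordinates on mm9 (chromosome, start, end) and no score, count or *P* value. Per the submitters' processing notes the tools included CASAVA 1.8.2, FastQC, Bowtie, Bowtie2 and SAMtools. The peak caller and the test behind the decreased lists are not given in the sources used here. Groups came from sample titles. Genes, transcripts and exons were those of GENCODE vM1 on NCBIM37, where *Kmt2d* is *Mll2*. Coordinates are 1-based.

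Regions were matched to the decreased lists by identical coordinates and to last exons and TSS by overlap, in Python 3.11.15 with pandas 2.3.3, pysam 0.24.0 and scipy 1.17.1. Overlaps were checked with bedtools 2.31.1 and tested on simulated data. A promoter region was a merged region over a TSS of a protein-coding transcript of the gene. RefSeq gene starts were placed by exact 60-base matches. Named genes were regions in both lists, the 8 widest of each list, a list of genes fixed by name, decreased members of the gene lists, genes with several decreased members, and genes with a decreased end and promoter. Other genes with a decreased end that are named were chosen after their values were seen. Regions, genes and lists were chosen with earlier results of these data known. Alternatives changed the TSS distance, width, overlap, transcripts and promoter definition. ChIP-Exo regions were left out.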

Additional observations from a re-analysis of the deposited data

How the results depend on the processing

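Of 54 alternative values, 45 stayed within the Wilson interval of the reported share or, for the number of regions, within 1.5 times. The number of gene-end regions, 1793, was 1129 over 10 kb from a TSS, 725 with at least 50% of the region in a last exon, 1108 with the annotated end inside, 2951 from 500 bp and 846 from 2000 bp. The share with decreased H3K4me1, 2.34%, was 1.52% with at least 50% in a last exon, 1.63% from 500 bp, 4.02% from 2000 bp and 3.42% by covered base pairs. The cause of these changes was not tested. The share with decreased H3K4me2 ranged from 0.690% to 1.28%. The share of promoters with decreased H3K4me2 at ends with decreased H3K4me1 ranged from 38.0% (TSS of protein-coding transcripts only) to 60%, above the 28.2% to 31.2% of ends in neither list under each of the 14 alternatives. The Wilson intervals of these shares overlapped under 6 of the 14 and did not under 8. Those that overlapped were over 2 kb from a TSS (43.4%), TSS of protein-coding transcripts only (38.0%), at least 50% in a last exon (60%), the annotated end inside (45.5%), from 2000 bp (38.2%) and the outermost TSS only (42.9%). Identical coordinates and overlap of 1 bp gave the same calls, which says nothing about stability. Requiring transcripts with 2 or more exons, or leaving out regions with a RefSeq gene start, kept the same 20 of 42 pairs. These alternatives are among the 8 without overlap and say as little about the promoter share. Leaving out transcripts tagged incomplete at the 3' end, or regions with a RefSeq gene start, was chosen after seeing the data and moved no value out of its range. No paired analysis was possible because the lists hold no value per library, and leaving out a pool could not be done for the same reason.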
